A study of Mus musculus with 2 samples.

Results

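The 39 genes described here encode ligands, binding proteins, receptors, SMAD transducers, repressors and target genes of TGF-beta, activin and BMP signalling. They were chosen by name: each probe set whose single gene symbol was one of the 39 was taken, which gave 90 probe sets for 39 of the 18193 genes on the array. One further probe set that names a member together with another gene was not used. Mammary epithelial cells were compared between Cuzd1-null mice and their heterozygous littermates, which carry 1 disrupted Cuzd1 allele, so no wild-type cells were measured. The null allele was made by homologous recombination in embryonic stem cells, and carriers were backcrossed to C57BL/6 females until that background predominated. Both groups were pregnant females on day 18 after mating to fertile males, with age not stated. Inguinal glands were digested with hyaluronidase and collagenase and washed with no recorded sort. RNA of 5 mice per genotype was pooled and put on 1 array, so there are 2 arrays, no replicate spread, no test and no p-value. Every difference below is one between 2 pools.

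Ligands of this family are secreted dimers that bind pairs of type I and type II serine/threonine kinase receptors. TGF-beta and activin receptors phosphorylate SMAD2 and SMAD3, BMP receptors phosphorylate SMAD1 and SMAD5, and both kinds of SMAD enter the nucleus with SMAD4. In the mammary gland TGF-beta is known for restraining ductal growth and for opposing milk production before birth, and BMP signals act in the developing bud and in exchanges between stroma and epithelium.

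The unit is the MAS5 signal intensity deposited by the authors, which is linear. Each array was floored at its median over all 45037 non-control probe sets, at 32.5 units on the null array and 34.2 units on the heterozygous array, because values under that level are mostly background. Each gene is given at its brightest probe set by mean signal, and its log2 ratio is null over heterozygous after flooring. Genes that exceeded the floor of either array count as measured, namely 35 of the 39 members and 11893 genes in all. Luminal markers were bright in both pools, among them Krt8, a luminal keratin (8875 units in null and 8520 units in heterozygous cells), while Prom1 was below both floors. Cuzd1 itself read close to the floor in both pools (33.98 units in null and 32.4 units in heterozygous cells), so it does not check the labels. Directions depend on the authors' scaling: spiked hybridization controls had a median log2 ratio of -0.22, and rescaling to them adds 0.22 to nearly every ratio below.

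Ratios of the secreted members spread more widely than those of the receptors and SMADs. Of 14 measured extracellular members, 9 were higher and 5 lower in null cells, with a median log2 ratio of 0.35 and a range of -1.04 to 0.85. The 15 measured receptors and SMADs had a median of 0.01 and a range of -0.26 to 0.41, and 13 of them lay within 20% of equality. Both ends of the extracellular range, Inhba and Bmp7, were near the floor, where the robust SD of ratios among genes of similar signal was 0.57 and 0.52, while most receptors and SMADs were brighter (0.25 for Smad3). The difference in spread was not tested. All 35 measured members had a median of 0.07, against 0.03 for all measured genes. Within 20% of equality lay 21 of the 35 members, or 60%, and 60.0% of all measured genes, so over the whole list differences of that size were as frequent as among other genes.

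No member was at least 2-fold higher in null cells, where 1.12% of all measured genes were, and 1 was at least 2-fold lower (2.86% of members, against 1.03% of genes). At a smaller fold of 1.5, chosen after the values were seen, 5 members were higher (14.3%, against 5.83% of genes) and 1 was lower (2.86%, against 4.93%). The higher members were Bmp7, Ltbp2, Fstl1, Ltbp4 and Id4, and the lower one was Inhba. A ratio above 0 was found for 22 members (62.9%, against 54.0% of genes), which became 31 members after rescaling to the hybridization controls, where 78.9% of genes were above 0. Just inside the 1.5-fold limit lay Id4 at 1.57-fold, and just outside it on the higher side Tgfb3 and Tgfb1, both at 1.36-fold.

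**Figure D1:**
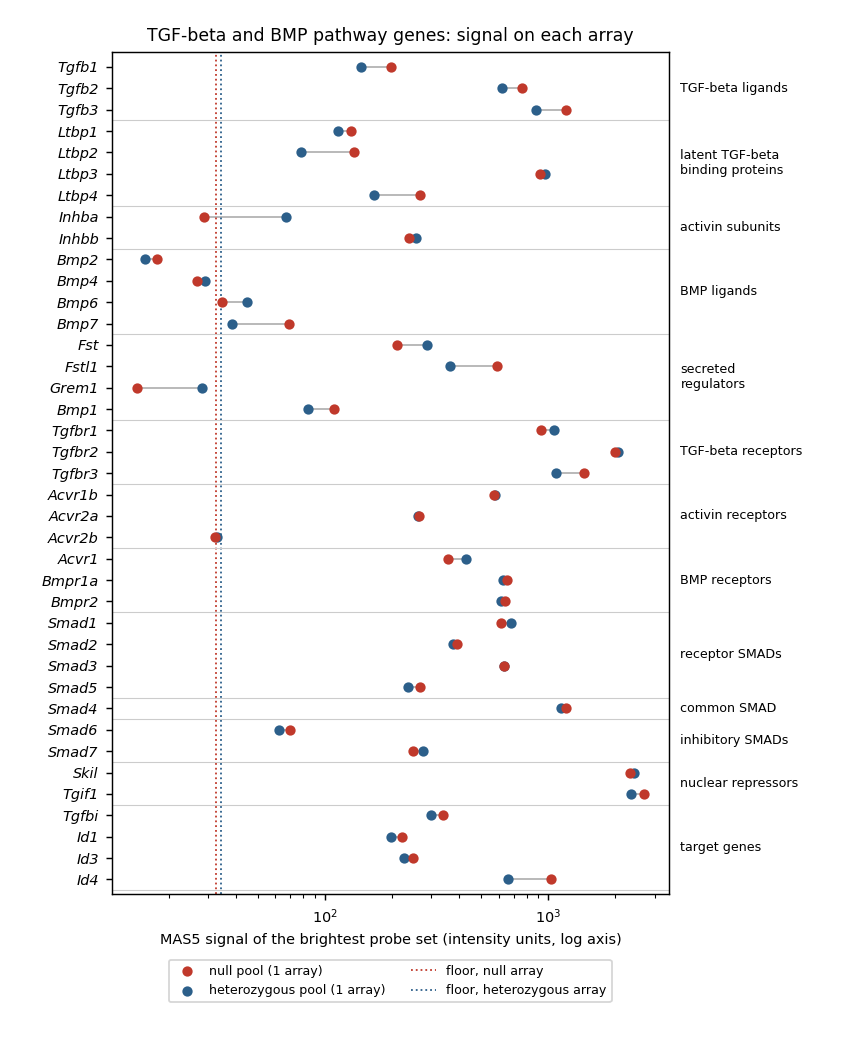
MAS5 signal of the brightest probe set of each of the 39 genes (horizontal log axis, intensity units) in the null pool (red) and the heterozygous pool (blue), 1 array each, grouped by role; dotted lines mark the floors at 32.5 and 34.2 units. Points of the receptors and SMADs nearly coincide, while Ltbp2, Ltbp4, Fstl1 and Id4 lie further right in null cells and Inhba and Fst further left.

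All 3 TGF-beta ligands, the secreted dimers that signal through SMAD2 and SMAD3, read higher in null cells. Tgfb3 had 1199 units in null and 884 units in heterozygous cells, a log2 ratio of 0.44, and 3.0% of the 500 measured genes nearest in signal had a ratio as high. Tgfb2 had 764 units in null and 620 units in heterozygous cells, a ratio of 0.30 that 10.4% of genes nearest in signal reached. Its 4 probe sets were all above 0, from 0.27 to 0.62. Tgfb1 had 197 units in null and 145 units in heterozygous cells, also 0.44, which 10% of genes nearest in signal reached. Its other probe set was dim and went the other way (27.5 units in null, below the floor, and 41.2 units in heterozygous cells, a ratio of -0.34), so that the mean over both probe sets was 0.05. The direction for Tgfb1 therefore rests on 1 probe set, and that for Tgfb2 on 4.

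Latent TGF-beta binding proteins hold the inactive ligand and tether it to matrix fibres. Ltbp2, which binds fibrillin but is not known to carry latent TGF-beta, read 134 units in null and 78.1 units in heterozygous cells, 1.72-fold higher, and 5.0% of genes nearest in signal had a ratio as high. Ltbp4, which carries latent TGF-beta-1 and supports elastic fibres, read 266 units in null and 166 units in heterozygous cells, 1.61-fold higher, and 2.6% of genes nearest in signal had a ratio as high. Each of these genes has 1 probe set on the array, so there is no second reading. Ltbp1, the prototype carrier, had 131 units in null and 115 units in heterozygous cells (0.19), and Ltbp3 had 918 and 972 units in null and heterozygous cells (-0.08). The family was thus split, with 2 members at least 1.5-fold higher and 2 near equality.

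Inhba and Fst, an activin subunit and an activin inhibitor, read lower in null cells. Inhba, the beta-A subunit whose dimer is activin A, had 28.7 units in null cells, under the floor, and 67.0 units in heterozygous cells, at least 2.06-fold lower. It was the 1 member past 2-fold, and close to the floor: the ratio of -1.04 became -0.82 after rescaling and -0.89 with 16 units added in place of the floor. Inhbb, the beta-B subunit, had 238 units in null and 256 units in heterozygous cells (-0.10), with -0.30 at its dimmer probe set, and its sign changed after rescaling (0.12). Fst, follistatin, which binds activin and keeps it from its receptors, had 209 units in null and 288 units in heterozygous cells, a ratio of -0.46. Its second probe set had 168 units in null and 280 units in heterozygous cells (-0.73), so both readings were lower. Of genes nearest in signal, 4.4% had a ratio as low as that of Fst.

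Fstl1, a secreted glycoprotein with a follistatin-like domain, went the opposite way from Fst. It read 592 units in null and 363 units in heterozygous cells, 1.63-fold higher, and its second probe set agreed closely at 515 units in null and 308 units in heterozygous cells (0.70 and 0.74). Of genes nearest in signal, 2.0% had a ratio as high. Bmp1, a protease that cleaves procollagens and the BMP antagonist chordin and is no BMP ligand, had 110 units in null and 84.1 units in heterozygous cells (0.39). Grem1, a secreted BMP antagonist, was below both floors, at 14.4 units in null and 28.3 units in heterozygous cells, so no ratio is given.

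BMP ligands were dim. Bmp2 (17.7 units in null and 15.7 units in heterozygous cells) and Bmp4 (26.7 units in null and 29.1 units in heterozygous cells) were below both floors. Bmp6 was just above them, at 34.6 units in null and 44.7 units in heterozygous cells (-0.37). Bmp7 read 69.0 units in null and 38.2 units in heterozygous cells, 1.81-fold higher, with 50.2 and 43.5 units in null and heterozygous cells at its other measured probe set (0.20). Near the floor ratios spread widely: 8.4% of genes nearest in signal had a ratio as high as that of Bmp7. With signals this low, these arrays separate neither presence from absence of the BMP ligands nor small differences between the pools.

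**Figure D2:**
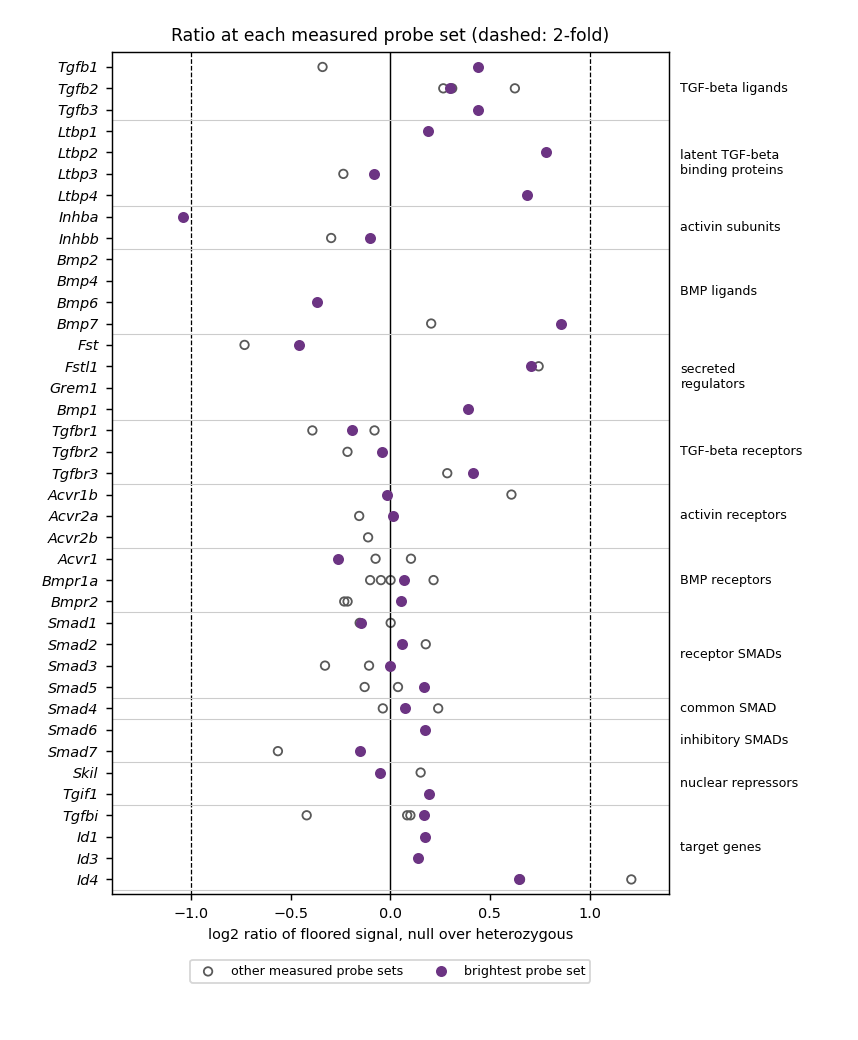
Log2 ratio of null over heterozygous signal (horizontal axis) at each measured probe set of each gene, with the brightest probe set filled and the others open; dashed lines mark 2-fold. The probe sets of Tgfb2, Fst, Fstl1 and Id4 lie on 1 side of 0 for each gene, while those of Tgfb1, Acvr1b and Tgfbi lie on both sides.

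Receptors for these ligands mostly read alike in the pools. Tgfbr2, the type II receptor that binds TGF-beta first, had 1992 units in null and 2054 units in heterozygous cells (-0.04), and Tgfbr1, its type I partner, had 929 units in null and 1063 units in heterozygous cells (-0.19). The dimmer probe sets of Tgfbr1 had ratios of -0.08 and -0.39. Tgfbr3, betaglycan, a co-receptor that presents TGF-beta-2 and also binds inhibin, was the exception at 1449 units in null and 1087 units in heterozygous cells. Its ratio was 0.41, with 0.29 at the second probe set, and 4.4% of genes nearest in signal had one as high. The co-receptor and the ligand it presents, Tgfb2, were thus both higher in null cells at every probe set.

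Activin and BMP receptors stayed within a narrow range. The type I activin receptor Acvr1b had 572 units in null and 578 units in heterozygous cells (-0.01), although a dim second probe set had 52.2 units in null and 31.0 units in heterozygous cells (0.61). The type II receptor Acvr2a had 264 units in null and 262 units in heterozygous cells (0.01). Acvr2b, the other type II receptor, was below both floors at its brightest probe set, with 32.2 units in null and 33.0 units in heterozygous cells. Bmpr1a, a type I BMP receptor, had 656 units in null and 625 units in heterozygous cells (0.07), and its 5 measured probe sets ran from -0.10 to 0.22. Bmpr2, the type II BMP receptor, had 639 units in null and 615 units in heterozygous cells (0.06). Acvr1, a type I receptor for several BMPs, was the lowest of the receptors at 357 units in null and 428 units in heterozygous cells (-0.26), with -0.07 and 0.10 at its other probe sets. Apart from Tgfbr3, the measured receptor furthest from equality at its brightest probe set was Acvr1, 1.20-fold lower.

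The SMADs, which carry the signal to the nucleus, all lay within 20% of equality at their brightest probe sets. Among those phosphorylated by TGF-beta and activin receptors, Smad2 had 390 units in null and 374 units in heterozygous cells (0.06) and Smad3 had 634 units in null and 636 units in heterozygous cells (-0.00). At a dim probe set Smad3 had 53.7 units in null and 67.4 units in heterozygous cells (-0.33). Of the BMP-regulated SMADs, Smad1 had 617 units in null and 683 units in heterozygous cells (-0.15), and Smad5 had 266 units in null and 236 units in heterozygous cells (0.17). Smad4, the partner of both kinds, had 1203 units in null and 1142 units in heterozygous cells (0.07). Neither SMAD branch stood apart from the other in these values.

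Inhibitors inside the cell were also near equality. Smad6, which blocks mainly BMP signalling, had 70.0 units in null and 62.1 units in heterozygous cells (0.17). Smad7, an inhibitor that TGF-beta itself induces, had 248 units in null and 276 units in heterozygous cells (-0.15), with -0.56 at a dim second probe set. Skil, the SnoN repressor that holds SMAD complexes inactive, had 2330 units in null and 2417 units in heterozygous cells (-0.05). Tgif1, a homeodomain repressor that binds SMAD2, had 2682 units in null and 2346 units in heterozygous cells (0.19). At their brightest probe sets all 4 lie within 0.22 of 0, the size of the shift from rescaling.

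Among target genes Id4 stood apart. The Id proteins bind helix-loop-helix factors and keep them from DNA, and Id1 and Id3 are textbook targets of BMP through SMAD1 and SMAD5. Id4 read 1032 units in null and 659 units in heterozygous cells, 1.57-fold higher, and 1.2% of genes nearest in signal had a ratio as high. Its other probe sets had 402 and 256 units in null and heterozygous cells (0.65), and 569 and 246 units in null and heterozygous cells. The last of these was 2.31-fold higher and was the 1 member probe set of 75 measured that was at least 2-fold higher (1.33%, against 0.950% of all measured probe sets). The probe set of Inhba was the 1 at least 2-fold lower (1.33%, against 1.08%). At 1.5-fold, 10 member probe sets were higher (13.3%, against 5.72%) and 2 lower (2.67%, against 5.81%). The higher ones included all 3 of Id4 and both of Fstl1, so single genes weigh more than 1 time in that share. They also included the dim probe set of Acvr1b, above the floor only in null cells. Id1 had 222 units in null and 197 units in heterozygous cells (0.18), and Id3 had 249 units in null and 226 units in heterozygous cells (0.14). Id2, which is no member and is named after its values were seen, went the other way at 540 units in null and 816 units in heterozygous cells (-0.60, with -0.66 to -0.53 over its 3 probe sets). The 4 Id genes thus ranged from 1.51-fold lower to 1.57-fold higher.

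Tgfbi, a matrix protein named for its induction by TGF-beta, had 337 units in null and 300 units in heterozygous cells (0.17). Its other probe sets had ratios of 0.10, 0.08 and -0.42, so the direction is not settled by this array. Over the 24 members with at least 2 measured probe sets, 13 had ratios on 1 side of 0 and 11 on both. The median range between probe sets of a gene was 0.29. At the brightest probe set, every measured receptor and SMAD except Tgfbr3 had a smaller ratio, in either direction. Probe sets of a gene read the same 2 pools and are not replicates.

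Promoter sequence is shown for Id4 and Id3, target genes with unequal ratios, and for Tgfb1 and Tgfb2, ligands that both read higher. Each run is the 250 bases before an annotated start, 5′ to 3′ on the strand of the gene, from RefSeq on GRCm38.p6. For Tgfb2 that start lies inside the annotated gene, which begins at 186709697 on the minus strand. Its motif positions are therefore not counted from the start of the whole gene. Capitals mark matches on either strand to GGCGCC, the GC-rich core bound by BMP-regulated SMADs, which is its own reverse complement, to CAGAC, the core SMAD-binding letters (GTCTG on the other strand), and to TATAAA, the TATA box (TTTATA on the other strand).
Id4 (chr13:48260866-48261115, plus strand): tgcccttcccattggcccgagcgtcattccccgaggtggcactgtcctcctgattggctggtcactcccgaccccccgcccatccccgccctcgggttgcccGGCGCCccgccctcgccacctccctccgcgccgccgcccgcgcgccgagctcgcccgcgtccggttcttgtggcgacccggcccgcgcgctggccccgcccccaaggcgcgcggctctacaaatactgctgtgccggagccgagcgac
Id3 (chr4:136143572-136143821, plus strand): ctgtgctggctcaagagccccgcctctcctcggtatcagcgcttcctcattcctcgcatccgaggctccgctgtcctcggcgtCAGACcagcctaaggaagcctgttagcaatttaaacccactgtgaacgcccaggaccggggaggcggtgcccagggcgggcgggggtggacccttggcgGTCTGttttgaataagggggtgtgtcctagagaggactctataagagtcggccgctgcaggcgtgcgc
Tgfb1 (chr7:25686752-25687001, plus strand): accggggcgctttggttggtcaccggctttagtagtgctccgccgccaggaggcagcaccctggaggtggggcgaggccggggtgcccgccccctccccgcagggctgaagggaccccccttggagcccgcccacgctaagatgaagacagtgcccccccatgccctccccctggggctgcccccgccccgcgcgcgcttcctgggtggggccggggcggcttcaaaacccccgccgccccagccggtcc
Tgfb2 (chr1:186705990-186706239, minus strand): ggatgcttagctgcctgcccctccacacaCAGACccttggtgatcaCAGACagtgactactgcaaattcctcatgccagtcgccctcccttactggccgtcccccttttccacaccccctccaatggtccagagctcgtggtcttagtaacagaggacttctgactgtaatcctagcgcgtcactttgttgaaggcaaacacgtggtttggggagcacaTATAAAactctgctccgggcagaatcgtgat
The Id4 window holds 1 GGCGCC, starting 148 bases before the gene, and no CAGAC. The Id3 window holds 2 CAGAC matches, at 167 and 68 bases, and no GGCGCC. Tgfb2 has 2 CAGAC matches, at 221 and 204 bases, and a TATA box at 31 bases, and Tgfb1 has none of the 3 motifs. Over all 32851 windows of this length in the table, 9.59% hold GGCGCC, 42.2% hold CAGAC and 12.4% hold TATAAA. Of the 38 windows of member genes, 9 hold GGCGCC, 17 hold CAGAC and 2 hold TATAAA. Of 28 member genes with a window, 8 hold GGCGCC, 14 hold CAGAC and 2 hold TATAAA in at least 1 of their windows. The counts by gene are not comparable with the shares over all windows. A match describes letters only and says nothing of binding in these cells.

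**Figure D3:**
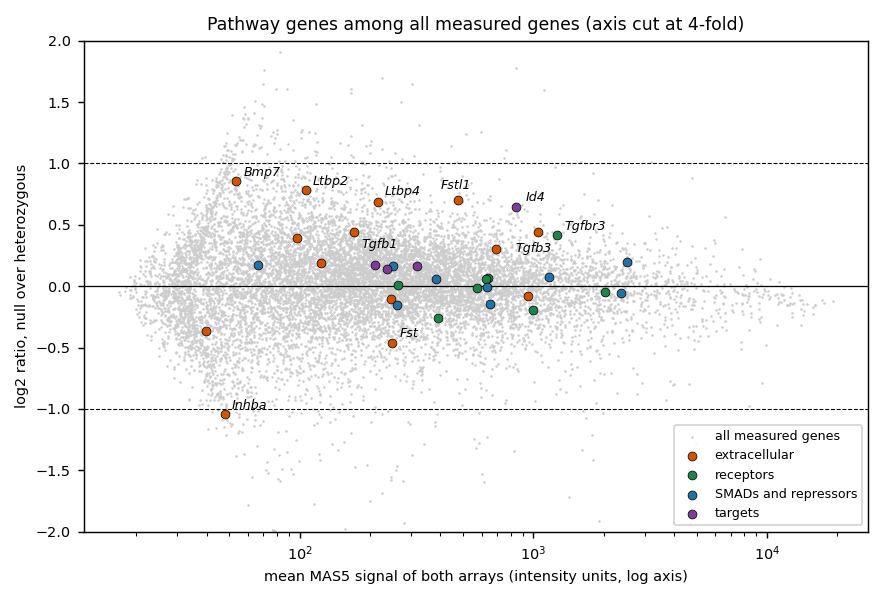
Log2 ratio of null over heterozygous signal (vertical axis) against the mean signal of both arrays (horizontal log axis, intensity units) for 11893 measured genes in grey and the 35 measured members in colour by role; dashed lines mark 2-fold, and 12 genes beyond 4-fold are not drawn. The grey cloud widens toward low signal, where Inhba and Bmp7 lie, and is narrower where Id4, Fstl1, Tgfb3 and Tgfbr3 lie.

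Other genes of the pathway, from a list grouped by role, were also mixed. Of 91 listed, 79 had a probe set and 53 were measured, with 27 above and 26 below 0, and a median of 0.03. Past 2-fold lay 1 gene on the higher side (1.89%, against 1.12% of all measured genes) and 1 on the lower (1.89%, against 1.03%), shares that rest on single genes. Ccn2, connective tissue growth factor and a classic TGF-beta target, was the lower one at 1077 units in null and 2494 units in heterozygous cells, 2.31-fold. The remaining listed targets included Junb, a transcription factor (4438 units in null and 3906 units in heterozygous cells, 0.18), and Tagln, a smooth muscle actin-binding protein (3937 units in null and 4029 units in heterozygous cells, -0.03). Over 12 measured targets on this list, 5 were above and 7 below 0. Lower by at least 1.5-fold were 3 of them, Ccn2, Id2 and Cdkn1a (25%, against 4.93% of all measured genes), and 0 were higher by as much (against 5.83%). Cdkn1a, an inhibitor of cyclin-dependent kinases named after its values were seen, had 302 units in null and 497 units in heterozygous cells (-0.72). The median of these targets was -0.13, and that of the 4 target genes among the members was 0.17. Both are smaller than the shift from rescaling, so no direction is given for either group.

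Genes that hold or release latent TGF-beta had the highest median of these groups, 0.59 over 7 measured genes. Nrros, which tethers latent TGF-beta-1 on myeloid cells, was the 1 gene at least 2-fold higher, at 109 units in null and 54.1 units in heterozygous cells (2.02-fold). Dcn, decorin, a proteoglycan that binds TGF-beta, had 2655 units in null and 1677 units in heterozygous cells (0.66), and Thbs1, thrombospondin 1, an activator of latent TGF-beta, had 2304 units in null and 2668 units in heterozygous cells (-0.21). Among other receptors Eng, the endothelial co-receptor endoglin, had 309 units in null and 230 units in heterozygous cells (0.42), and Acvrl1, its type I partner, had 142 units in null and 118 units in heterozygous cells (0.26).

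The remaining groups of the list held genes on both sides of 0. Other secreted antagonists ran from -0.91 for Fstl3, a follistatin-like activin binder that was under the floor in null cells (26.2 units in null and 61.0 units in heterozygous cells), to 0.67 for Sostdc1, a BMP antagonist (109 units in null and 68.4 units in heterozygous cells), both named after their values were seen. Regulators inside the cell ran from -0.47 to 0.58 and other ligands from -0.41 to 0.55. Of secreted antagonists, Chrdl2, a chordin-like protein, had 1206 units in null and 1355 units in heterozygous cells (-0.17), and Twsg1, which acts with chordin, had 732 units in null and 627 units in heterozygous cells (0.22). Tob1, an antiproliferative protein that binds SMADs, had 2314 units in null and 2263 units in heterozygous cells (0.03), and Tab2, an adaptor of the TAK1 kinase, had 1437 units in null and 1575 units in heterozygous cells (-0.13). Of 18 other ligands with a probe set, 13 were below both floors. The brightest were Gdf5, at 84.0 units in null and 97.1 units in heterozygous cells (-0.21), and Gdf11, at 47.1 units in null and 50.4 units in heterozygous cells (-0.10).

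Markers of several non-epithelial cell types were higher in null cells. Of the 14 measured extracellular members, 9 were also higher there and 5 were lower. In these pools of mixed cells, more cells of a type and more RNA per cell cannot be told apart. All 9 measured fibroblast markers were higher in null cells, with a median of 0.51 and a summed signal of 13019 units in null and 8939 units in heterozygous cells. All 10 endothelial markers were higher, with a median of 0.42 and sums of 2594 units in null and 1819 units in heterozygous cells. Macrophage markers were higher for 8 of 10, with a median of 0.29 and sums of 13758 units in null and 10839 units in heterozygous cells. No marker of these 3 lists was below both floors. B and plasma cell markers were higher for all 6 measured, with a median of 0.96. Their sums were 2975 units in null and 418 units in heterozygous cells, of which Ighm alone gave 2252 and 172 units. T and NK cell markers were higher for 3 of 4, with sums of 356 units in null and 261 units in heterozygous cells. Of these lists Mzb1, Cd79a, Ms4a1, Cd3g and Cd2 were above the floor only in null cells. They counted as measured only through that pool, so their direction adds little. The part of these cells in the ratios of Ltbp2, Ltbp4, Fstl1, Nrros, Dcn and Eng was not tested, and Dcn and Eng are themselves on the fibroblast and endothelial lists.

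The epithelial lists, and the adipocyte list among the non-epithelial ones, did not share that shift and had medians below 0. Luminal markers had a median of -0.01 over 10 measured genes, 5 above and 5 below 0, with sums of 59397 units in null and 58324 units in heterozygous cells. Milk genes were lower for all 9, with a median of -0.15 and sums of 104002 units in null and 117313 units in heterozygous cells, a difference smaller than the shift from rescaling. Single genes ran from -0.52 to -0.11, and Lalba, Xdh and Wap lay beyond that shift at -0.52, -0.44 and -0.23. Myoepithelial markers were lower for 7 of 10, with a median of -0.07 and sums of 24652 units in null and 26724 units in heterozygous cells. Within that list the basal keratins Krt17, Krt14 and Krt5 had the lowest ratios, -1.55, -0.69 and -0.47, and were named after their values were seen. The rest of the list did not follow them. Trp63 had 0.53, with -0.71 to 0.53 over its 4 probe sets, and Oxtr had 0.13. Acta2, Cnn1, Tagln, Mylk and Myh11 ran from -0.11 to 0.01. Adipocyte markers were lower for all 3 measured, with a median of -0.28 and sums of 6208 units in null and 6938 units in heterozygous cells. Of the 3, Adipoq and Lep were above the floor only in heterozygous cells and counted as measured only through that pool. Fabp4 gave 6169 units in null and 6829 units in heterozygous cells, nearly all of the sums. Its ratio was -0.15, but its 4 probe sets ran from -0.21 to 0.60, so its direction is not settled. The 1 further marker, Cidec, was below both floors. The median of the receptors and SMADs was 0.01, and that of all measured genes was 0.03.

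**Figure D4:**
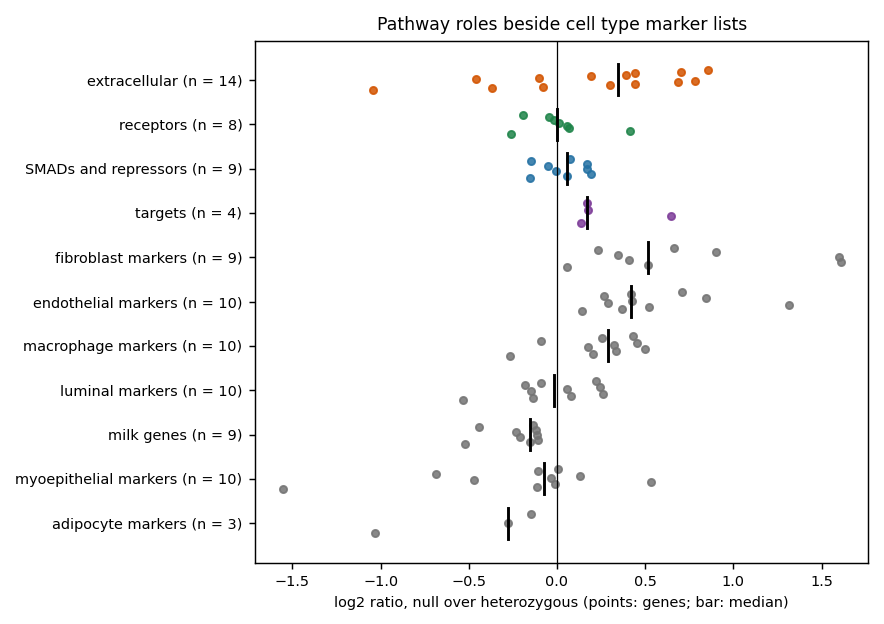
Log2 ratio of null over heterozygous signal for measured members by role (coloured) and for measured genes of cell type marker lists (grey), with 1 point per gene and a bar at the median. Extracellular members have a median of 0.35 and fibroblast markers 0.51, while receptors and luminal markers centre near 0.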

How the data were processed

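RNA of mammary epithelial cells from 5 null and 5 heterozygous mice was pooled by genotype, and each pool was hybridised to 1 3′ expression array. The authors deposited a linear signal intensity for each probe set, computed by MAS5 (Affymetrix Expression Console 1 is the software named), per the submitters' processing notes. The mean after trimming 2% from each end was 150.001 on both arrays, so each carries a global scaling factor, which assumes equal total signal in both pools. The sources used here name no genome build for the array values. Detection calls were not used here.

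Names of genes were taken from the platform's probe table: 34945 non-control probe sets had 1 symbol, 932 had several and 9160 were unlisted. Entrez IDs matched 34741 probe sets to the RefSeq mouse table, whose symbols were used. Arrays were floored at the median, the brightest probe set stood for each gene, and log2 ratios were taken with pandas 2.3.3 and numpy 2.4.6. Where 1 array was at its floor, the fold is a bound. With 1 array per genotype no test was possible, and the number of arrays limits the precision. The code recovered folds planted in a copy of the heterozygous array with no noise added. That checks the arithmetic only, and not how reliable folds between these 2 arrays are. The members, gene lists and thresholds were chosen with earlier results of these data known. Every member is named. From the other pathway genes those at least 2-fold apart and the 2 brightest measured genes of each role were named. Those said to be named after their values were seen fall outside this rule. Ratios of single genes were set beside those of the 500 measured genes nearest in mean signal, as a description. Alternatives changed the floor, the filter, the scaling and the choice of probe set.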

Additional observations from a re-analysis of the deposited data

How the results depend on the processing

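No paired analysis was possible because each genotype has 1 array, and for the same reason no replicate could be left out. Over the reported setting and 9 alternatives, 18 of 35 members kept a ratio above 0 wherever they could be computed, among them Tgfb1, Tgfb2, Tgfb3, Ltbp2, Ltbp4, Fstl1, Bmp7, Tgfbr3 and Id4, and 4 kept one below 0 (Inhba, Fst, Bmp6 and Acvr1). The other 13, mostly receptors and SMADs, took both signs. Rescaling to the hybridization controls adds 0.22 to nearly every ratio, so it can turn small negative ratios positive and not the reverse. The counts of 18 and 4 are therefore uneven partly by construction. Several settings also cannot move a gene far above the floor. Tgfb3, which has 1 probe set, kept 0.44 with no floor, with either other floor and with either other choice of probe sets. A sign kept under such settings is no further support. Rescaling to the hybridization controls moved the members' median to 0.29 (0.25 for all genes), gave 2 members past 2-fold on the higher side (Bmp7 and Ltbp2), 0 on the lower, and 9 at least 1.5-fold higher. The 2-fold call of Inhba was also lost (0 members lower) with the floor at the 75th percentile, with only genes above both floors and with 16 units added in place of a floor, each of which left 1 member probe set at least 2-fold apart against 2 as reported. The floor at the 75th percentile kept 28 members, with 3 past 1.5-fold on the higher side and 0 on the lower. Only genes above both floors gave 0 on the lower side. That count was 2 with a 25th percentile floor, and 2 with the mean over probe sets. Other pathway genes at least 2-fold apart numbered 5 with no floor, 12 with a 25th percentile floor and 1 with a 75th percentile floor, against 2. The counts at 1.5-fold and their alternatives were added after the data were seen. Low signal limits Inhba, the BMP ligands, Grem1 and Acvr2b most.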
